A study of Homo sapiens with 11 samples.

Results

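The amino acid transporters described here are 10 genes of the solute carrier (SLC) families, among 33080 genes measured by RNA sequencing in 769-P cells. They were chosen by name: SLC7A11, SLC3A2, SLC7A5, SLC7A1, SLC38A1, SLC38A2, SLC1A3, SLC1A4, SLC1A5 and SLC43A1. The choice was made with earlier results of these data known. All 10 had a row in the deposited tables and 9 had at least 1 read in some library. 769-P is a human clear cell renal carcinoma line, and the study lowered AKR1A1, an NADPH-dependent aldehyde reductase, with either of a pair of siRNAs. The control group (siSCR, n = 4 libraries) received a control siRNA, and the other groups received the first (si1, n = 3) or the second siRNA against AKR1A1 (si2, n = 4). Every group was a transient transfection of this one line with RNAiMAX and was collected at 48 h, with the siRNA labelled at 20 µM. The labels name the genotype of the control libraries wild-type and that of the siRNA libraries AKR1A1-/-, although the treatment they describe is a knockdown. They do not say whether the libraries of a group came from separate cultures, so each p-value measures only the spread between these libraries, which may be technical.

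Cells take up amino acids through carriers with overlapping substrates. SLC7A11 (xCT) exchanges extracellular cystine for glutamate and feeds glutathione synthesis, and SLC7A5 (LAT1) exchanges large neutral amino acids such as leucine; both are light chains that need the heavy chain SLC3A2 (CD98, 4F2hc) to reach the plasma membrane. SLC7A1 (CAT1) carries arginine and lysine, SLC38A1 and SLC38A2 (SNAT1, SNAT2) carry glutamine and other small neutral amino acids with sodium, and SLC1A5 (ASCT2) exchanges neutral amino acids including glutamine. In many cell types the genes of several of these carriers respond to amino acid shortage through the transcription factor ATF4, and SLC7A11 also to oxidative stress through NRF2, while imported leucine and arginine are sensed by the kinase complex mTORC1.

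The libraries held between 2108546 and 5939514 reads on genes. AKR1A1 was at 390, 256, 200 and 242 normalized counts in siSCR, at 81.7, 23.6 and 45.1 in si1, and at 56.6, 32.1, 48.3 and 46.1 in si2. All siRNA libraries lay below all controls, and limma gave a log2 fold change of -2.54 (SE 0.42, adjusted p = 0.0357) for si1 and -2.53 (SE 0.24, adjusted p = 0.00218) for si2. The AKR1A1 call with si1 was kept without siSCR 1 and was lost when any other library was left out (limma adjusted p 0.0659 to 0.126). The first control library, siSCR 1, stood apart from the rest of its group: mitochondrially encoded transcripts took 12.1% of its reads against 3.46% to 4.46% in siSCR 2 to 4. That share was 6.57% to 11.1% in si1 and 4.59% to 5.12% in si2, so si1 and si2 did not overlap in it. Of 13 renal and 769-P markers, 10 were at 10 or more normalized counts in every library, and CA9 was at 0 in all. KRT19 and EPCAM of that list did not pass 2.63 and 7.85. The 6 endothelial markers were at 0 in every library, and the summed leukocyte markers did not pass 3.92 and the fibroblast markers 62.8 normalized counts, against sums of at least 13405 for the renal list. VIM alone ranged from 6486 to 10600 and CDH2 from 2018 to 3186, so these genes made up much of the renal sum.

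In control cells the 10 transcripts spanned a wide range when set per kb of exon, the scale on which genes of different length can be compared. SLC38A1 was at 76.2 ± 8.78 normalized counts per kb (SD, n = 4), SLC38A2 at 71.7 ± 11.8 and SLC1A5 at 64.4 ± 22.6. The cationic carrier SLC7A1 followed at 42.3 ± 14.2, the heavy chain SLC3A2 at 39.4 ± 9.11 and SLC7A5 at 31.6 ± 15.4. Each of these 6 overlapped its neighbour in the order when single libraries were compared. SLC7A11 came next, at 4.43 ± 1.31 per kb. Its highest control library (6.37) lay below the lowest of SLC7A5 (8.49), and its lowest (3.66) above the highest of SLC1A4 (0.881). In si1 and si2 the cystine carrier averaged 1.81 and 5.06 per kb, beside 39.8 and 37.9 for SLC3A2, so it was far below its heavy chain in all 3 groups. SLC1A4 (ASCT1, a serine and alanine exchanger) was at 0.388 ± 0.384 per kb and SLC43A1 (LAT3, a leucine carrier) at 0.353 ± 0.525, and their ranges overlapped. SLC1A3 (EAAT1, a glutamate and aspartate carrier) had no read in any of the 11 libraries, so its level was under 3 counts of the 36266558 reads in all, or 0.0827 CPM, a limit that covers counting error only.

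**Figure D1:**
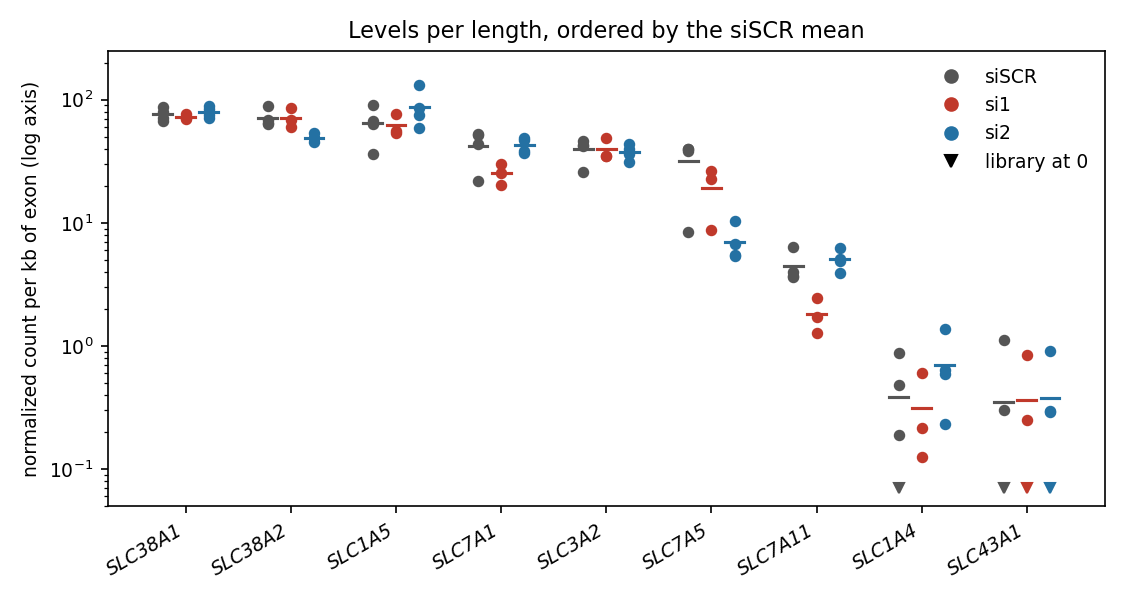
Normalized counts per kb of exon (log axis) for the 9 transporters with a read, ordered by the siSCR mean. Points are libraries, horizontal lines are group means, and triangles at the bottom mark libraries at 0. The 6 genes on the left lie between 5.41 and 131 per kb, and SLC7A5 with si2 comes down to the range of SLC7A11.

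Across the 3 comparisons, 1 difference of a transporter passed the threshold: SLC7A11 was 2.75-fold higher with si2 than with si1. For each comparison 7 of the 10 genes had enough reads to be tested, and a gene was called at a limma adjusted p under 0.05 over all genes tested. With si1 against siSCR, 0 of the 7 were called by limma (1 at an unadjusted p under 0.05), beside 1.72% of all 10517 genes tested. With si2 against siSCR, 0 of the 7 were called by limma (2 at an unadjusted p under 0.05), beside 3.12% of 10249 genes. With si2 against si1, 1 of the 7 was called by limma (4 at an unadjusted p under 0.05), beside 6.74% of 10448 genes. At an unadjusted p under 0.05 the shares of all genes tested were 23.9%, 19.6% and 25.4% in the same order, and every unadjusted count given here is to be read beside them. Limma-voom on the recovered reads, an alternative added after seeing the data, called 0, 1 and 3 of the 7 in the same order. Over all genes tested it called 582 of 10517, 463 of 10249 and 1172 of 10448. Every limma-voom count given here is to be read beside these. The median log2 fold change of the tested transporters was -0.07, 0.06 and 0.13, beside -0.03, -0.01 and 0.04 over all genes tested.

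Counted by single libraries, the groups did not overlap for 1 transporter with si1 against siSCR (SLC7A11), beside 21.7% of all genes tested. They did not overlap for 1 with si2 against siSCR (SLC38A2), beside 12.6%, and for 3 with si2 against si1 (SLC7A11, SLC7A1 and SLC38A2), beside 25% of all genes. Read beside these backgrounds, the counts show nothing about the 7 genes as a group. The siSCR libraries are shared by both control comparisons, whose values are therefore not independent. Over the whole table, 181 genes were called with si1 against siSCR. Leaving out siSCR 1 gave 1399, and leaving out another library gave 0 to 4. With si2 against siSCR the corresponding numbers were 320, 1496 and 88 to 160.

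**Figure D2:**
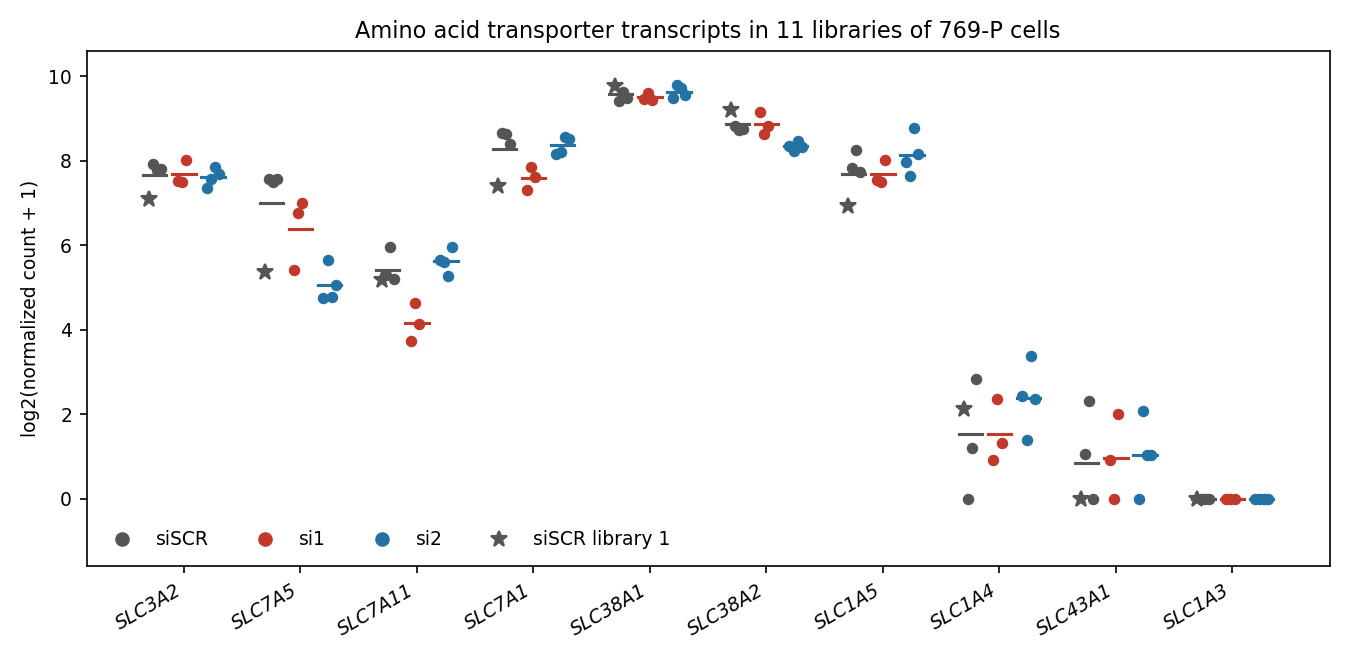
Level of each transporter in the 11 libraries as log2(normalized count + 1). Points are libraries coloured by group, stars mark siSCR 1, and horizontal lines are group means. SLC7A11 is lower in all 3 si1 libraries than in any other library, and siSCR 1 lies near the si2 libraries for SLC7A5.

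Promoter sequence is given for the 3 genes other than SLC7A11 whose levels stood furthest apart between groups, SLC7A5, SLC7A1 and SLC38A2, so that elements bound by factors known for this gene family can be seen in place. RefSeq promoter windows on GRCh38 (250 bases before to 50 after a start site) were matched by symbol for 9 of the 10 genes, all but SLC7A11, with 18 windows in all. They were searched on both strands for the amino acid response element TGATGNAA, the antioxidant response element TGACNNNGC and the E-box CACGTG, a palindrome counted once. The stretches below are on the minus strand, read 5′ to 3′ toward the gene, with a match in capitals.
SLC7A5, chr16:87869508-87869757: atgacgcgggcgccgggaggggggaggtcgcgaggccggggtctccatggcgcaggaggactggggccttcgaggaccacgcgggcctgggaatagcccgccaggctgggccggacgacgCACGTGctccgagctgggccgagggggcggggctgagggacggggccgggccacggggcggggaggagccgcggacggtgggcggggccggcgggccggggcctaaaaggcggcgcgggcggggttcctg
SLC7A1, chr13:29595689-29595938: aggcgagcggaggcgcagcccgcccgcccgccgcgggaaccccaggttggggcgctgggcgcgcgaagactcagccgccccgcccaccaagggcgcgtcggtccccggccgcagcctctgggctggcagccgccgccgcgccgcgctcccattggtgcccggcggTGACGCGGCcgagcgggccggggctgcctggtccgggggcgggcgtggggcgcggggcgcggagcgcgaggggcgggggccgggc
SLC38A2, chr12:46372868-46373023: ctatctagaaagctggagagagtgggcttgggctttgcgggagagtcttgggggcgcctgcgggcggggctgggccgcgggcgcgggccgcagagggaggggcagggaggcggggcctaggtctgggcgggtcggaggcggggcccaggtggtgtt
The SLC7A5 stretch ends 1 base before the RefSeq start site and holds an E-box that begins 130 bases before that site; an antioxidant element that begins 2 bases before the site reaches past the printed bases and is not capitalised. The SLC7A1 stretch ends likewise and holds an antioxidant element that begins 85 bases before its start site, and an amino acid response element lies 7 bases after it, outside the printed bases. The SLC38A2 stretch holds no match, and stops 95 bases before the RefSeq start because GENCODE 29 places the first exon further upstream. All 3 stretches are rich in G and C, at 79.6%, 84.4% and 73.7%. Over the 18 windows, 33.3% held the amino acid response element, 27.8% the antioxidant element and 16.7% the E-box, beside 3.62%, 13.3% and 7.26% of 35116 windows of the same length. These shares rest on 6, 5 and 3 windows. The elements were chosen as known for this gene family, so a higher share is no independent result. Of the genes with the amino acid response element, SLC1A3 had no read and SLC1A4 was too low to test. Several windows can belong to the same gene, and a match of letters is not a measured binding site.

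The heavy chain SLC3A2 (chromosome 11, 62856102 to 62888875 on GRCh38, GENCODE 29) was at 135, 241, 218 and 222 normalized counts in siSCR. It was at 182, 180.4 and 255 in si1 and at 163, 189, 228 and 205 in si2. The lowest of the 11 libraries was siSCR 1, and every group overlapped the others. Group means were 204 ± 47.2 (SD, n = 4), 206 ± 43.0 (n = 3) and 196 ± 27.5 (n = 4). No comparison called SLC3A2 (limma log2 fold change 0.03 for si1, 95% interval -0.57 to 0.63; -0.04 for si2, -0.51 to 0.43), and its sign depended on single libraries.

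SLC7A11, the cystine light chain (chromosome 4, 138164097 to 138242349, minus strand), was at 35.3, 38.5, 61.5 and 35.6 normalized counts in siSCR. With si1 it was at 12.3, 23.6 and 16.5, and with si2 at 49.5, 47.3, 37.8 and 60.6. All 3 si1 libraries lay below all 8 others, and the siSCR and si2 ranges overlapped. The si1 values rest on 14, 17 and 11 reads, so their counting error is large. In bulk RNA, fewer cells with a transcript and less of it per cell cannot be told apart.

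Between the siRNAs, SLC7A11 was higher with si2 than with si1, 48.8 ± 9.38 against 17.5 ± 5.71 normalized counts, a log2 difference of 1.46 (SE 0.26, 95% interval 0.87 to 2.05, limma adjusted p = 0.0199). The call was lost without si1 3, si2 1, si2 2 or si2 4 (limma adjusted p 0.0526, 0.0619, 0.0609 and 0.0671), and with no filter on low values (0.0561). Against siSCR (42.7 ± 12.6), si1 gave a log2 fold change of -1.25 (SE 0.29), a 2.38-fold difference that did not pass the threshold (limma adjusted p = 0.0664). Without siSCR 1 it did pass, at -1.33 (limma adjusted p = 0.0392), and with all 11 libraries in one fit as well (0.0172). It did not without each of the other 6 libraries (limma adjusted p 0.0801 to 0.177) or with no filter on low values (0.144). The exact permutation test gave p = 0.0571 both for si1 against siSCR and for si2 against si1. That is the smallest that 35 splits of 4 and 3 libraries allow. After Benjamini-Hochberg adjustment over 27 such tests both were at 0.257. In the authors' deposited table the log2 fold change of SLC7A11 with si1 was -1.04, with an adjusted p of 0.0493. With si2 against siSCR the log2 fold change of SLC7A11 was 0.21 (SE 0.22, 95% interval -0.28 to 0.70, limma adjusted p = 0.66), and the authors' deposited table gave 0.18.

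The share of mitochondrial reads was higher in each si1 library than in each si2 library, and its part in the SLC7A11 difference was not tested. In siSCR 1, whose mitochondrial share was the highest of all at 12.1%, SLC7A11 was at 35.3, the lowest of the controls. In siSCR 4, with a share of 4.28%, it was at 35.6. In si1 1, with the highest share of its group at 11.1%, SLC7A11 was at 12.3, the lowest of the 11 libraries. Of the exon bases of SLC7A11, 8.97% overlap the antisense gene SLC7A11-AS1, and the strandedness of the libraries is not given in the sources used here, so reads from that overlap cannot be assigned to one of the pair.

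The genes whose pattern over the 11 libraries was most like that of SLC7A11 were PLP2, HS2ST1, EMC1, POLR2D and SYNJ2BP. Likeness was the root mean square difference of log2 levels, each gene centred on its own mean, among 8675 genes with at least 10 normalized counts in every library. It was 0.231 for PLP2, which averaged 621, 306 and 752 normalized counts in siSCR, si1 and si2, and 0.289, 0.296, 0.299 and 0.300 for the other 4. Of the transporters, SLC7A1 was closest, at rank 150 with 0.443. SLC7A5, which shares the heavy chain with SLC7A11, was at rank 8629 with 1.35.

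SLC7A5, the leucine light chain (chromosome 16, 87830023 to 87869488, minus strand), was at 40.3, 189, 181 and 189 normalized counts in siSCR. It was at 41.3, 107 and 126 in si1 and at 25.6, 49.0, 26.3 and 32.1 in si2. Libraries siSCR 2 to 4 lay above all others, whereas siSCR 1 and si1 1 lay inside the si2 range. These 2 were also the libraries with the highest mitochondrial share, 12.1% and 11.1%. The si2 libraries had a share of 4.59% to 5.12%, beside 3.46% to 4.46% in siSCR 2 to 4. The part of this share in the SLC7A5 values was not tested.

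With si2, SLC7A5 averaged 33.2 ± 10.9 against 150 ± 73.1 in siSCR, a log2 fold change of -1.96 (SE 0.47, 95% interval -3.00 to -0.91). It missed the threshold (limma adjusted p = 0.0561). Without siSCR 1 the log2 fold change of SLC7A5 was -2.50 and it was called (limma adjusted p = 0.00089), and it was also called with a pseudocount of 5 (0.038), with limma-trend (0.0189) and with limma-voom (0.0458). SLC7A5 was not called without each of the other 7 libraries (limma adjusted p 0.0918 to 0.157), with no filter on low values (0.144) or with all 11 libraries in one fit (0.0701). The exact permutation p was 0.0571 over 70 splits, and 0.257 after Benjamini-Hochberg adjustment over 27 tests. The authors' deposited table listed SLC7A5 with a log2 fold change of -1.51 and an adjusted p of 1.27e-05 for si2. With si1, at 91.5 ± 44.5, limma gave SLC7A5 a log2 fold change of -0.62 (SE 0.63, adjusted p = 0.564), and the si2 to si1 log2 difference of -1.33 (SE 0.41) missed the threshold (limma adjusted p = 0.0882) but was called without si1 1 (0.0283), with limma-trend (0.0395) and with limma-voom (0.0472). Of the 50-base stretches of SLC7A5 transcripts, 3.92% recur in SLC7A5P1, SLC7A5P2 or SMG1P3, and 5.71% of its exon bases overlap the antisense gene AC126696.2, so its counts may be split or shared in part. The E-box printed above lies in the promoter of this gene, and MYC binding was not measured here.

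The balance of the light chains can be read within each library as the ratio to SLC3A2, both per kb of exon, a measure chosen after the values were seen. For SLC7A5 that ratio was 0.325, 0.855, 0.902 and 0.931 in siSCR, 0.248, 0.646 and 0.539 in si1, and 0.172, 0.283, 0.126 and 0.171 in si2. All si2 libraries lay below all controls, siSCR 1 included (exact permutation p = 0.0286, the smallest that 70 splits allow, and 0.114 after adjustment over 6 ratio tests). SLC7A5 alone overlapped between these groups (exact permutation p = 0.0571). The divisor SLC3A2 was itself lowest in siSCR 1, at 135 normalized counts against 218 to 241 in siSCR 2 to 4. For SLC7A11 the ratio was 0.0347 to 0.0702 in si1, below its ranges of 0.0855 to 0.151 in siSCR and 0.0891 to 0.163 in si2. Both SLC7A11 differences had an exact permutation p of 0.0571, the smallest that 35 splits allow, and 0.114 after adjustment. As the ratio was chosen after the values were seen, none of its p-values is independent support.

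**Figure D3:**
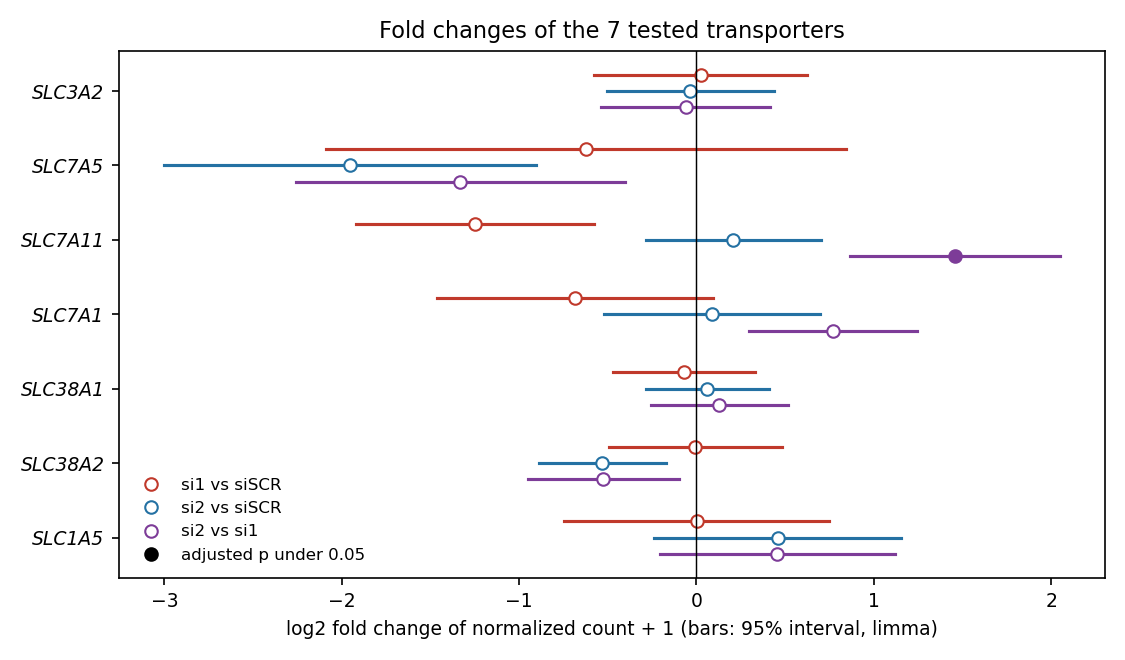
Log2 fold changes of the 7 tested transporters in the 3 comparisons. Circles are limma estimates, bars are 95% intervals, and the filled circle marks the one difference with an adjusted p under 0.05, SLC7A11 between si2 and si1. The intervals of SLC7A11 with si1, of SLC7A5 and SLC38A2 with si2, and of SLC7A5, SLC7A1 and SLC38A2 between the siRNAs do not reach 0 either, but those differences missed the adjusted threshold.

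SLC7A1, the arginine and lysine carrier (chromosome 13, 29509410 to 29595688, minus strand), was at 169, 404, 395 and 335 normalized counts in siSCR. It was at 156, 230.4 and 195 in si1 and at 286, 295, 379 and 361 in si2. All si1 libraries lay below all si2 libraries, and below siSCR 2 to 4, but siSCR 1 fell among them. The log2 fold change with si1 was -0.68 (SE 0.34, limma adjusted p = 0.254); without siSCR 1 it was -0.97 and SLC7A1 was called (limma adjusted p = 0.0302), and without each of the other 6 libraries it was not (0.272 to 0.462). The si2 to si1 log2 difference was 0.77 (SE 0.21, 95% interval 0.30 to 1.25), which missed the threshold (limma adjusted p = 0.0652). That difference of SLC7A1 was called with limma-trend (0.0219), with limma-voom (0.017), with a minimum of 50 (0.0299) and without si1 2 (0.044), and not without each of the other 6 libraries (0.108 to 0.172), with no filter (0.149) or with all 11 libraries in one fit (0.124). With si2, SLC7A1 averaged 330.4 ± 46.8 against 326 ± 109 in siSCR (log2 fold change 0.09, limma adjusted p = 0.894), and this sign turned without siSCR 1 (-0.20).

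The glutamine carriers of the SLC38 family are neighbours on chromosome 12, SLC38A1 at 46183063 to 46270017 and SLC38A2 at 46358189 to 46372867, both on the minus strand. SLC38A2 was at 588, 452, 423 and 431 normalized counts in siSCR and at 567, 398 and 451 in si1. With si2 it was at 325, 300.1, 354 and 321. All si2 libraries lay below all 7 others, and siSCR 1 and si1 1 were the highest. Against siSCR the log2 fold change with si2 was -0.53 (SE 0.16, 95% interval -0.89 to -0.17, limma adjusted p = 0.108). The exact permutation p was 0.0286, the smallest that 70 splits allow, and 0.257 after adjustment over 27 tests. Without siSCR 1 the difference was -0.42 (limma adjusted p = 0.0666), and the authors' deposited table gave SLC38A2 a log2 fold change of -0.51 with an adjusted p of 0.0213. The si2 to si1 log2 difference was -0.52 (SE 0.19, limma adjusted p = 0.127).

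SLC38A1, the other SNAT of the pair, ranged from 677 to 874 normalized counts in siSCR, from 696 to 772 with si1 and from 712 to 884 with si2. Its ranges overlapped in every comparison. Its log2 fold changes were -0.07 with si1 (95% interval -0.47 to 0.33) and 0.06 with si2 (-0.28 to 0.41), neither called by limma (adjusted p 0.836 and 0.87).

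SLC1A5, the neutral amino acid exchanger (chromosome 19, 46774883 to 46788594, minus strand), was at 120.1, 224, 303 and 211 normalized counts in siSCR. It was at 184, 180.4 and 255 in si1 and at 251, 197, 438 and 286 in si2. The ranges overlapped in all 3 comparisons, with siSCR 1 the lowest library and si2 3 the highest. The log2 fold change was 0.00 with si1 (SE 0.32) and 0.46 with si2 (SE 0.31, 95% interval -0.24 to 1.16), and limma called neither (adjusted p 0.998 and 0.458).

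SLC1A4 and SLC43A1 were too low to test with limma. Their exact permutation tests are among the 27 adjusted together above, and the smallest permutation p was 0.171 (SLC1A4 between the siRNAs). SLC1A4 had 11 reads in siSCR, 5 in si1 and 24 in si2, or 2.69 ± 2.66, 2.18 ± 1.74 and 4.91 ± 3.28 normalized counts. SLC43A1 had 4, 3 and 7 reads, at group means of 1.25 to 1.32 normalized counts. At this depth no difference in either gene was detected, and no fold change is given. How large a difference could have been detected was not computed.

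Several of these genes lay outside the range of siSCR 2 to 4 in the siSCR 1 library. The share of all genes for which this holds was not counted, so it is not read as a trait of the transporters. In siSCR 1, SLC7A5 was 4.62-fold below the mean of siSCR 2 to 4 (40.3 against 186 ± 5.05). SLC7A1 was 2.24-fold below (169 against 378 ± 37.4), SLC1A5 2.05-fold below and SLC3A2 1.68-fold below. SLC38A2 and SLC38A1 went the other way, at log2 differences of 0.44 and 0.27. With a single such library these are values without a test.

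**Figure D4:**
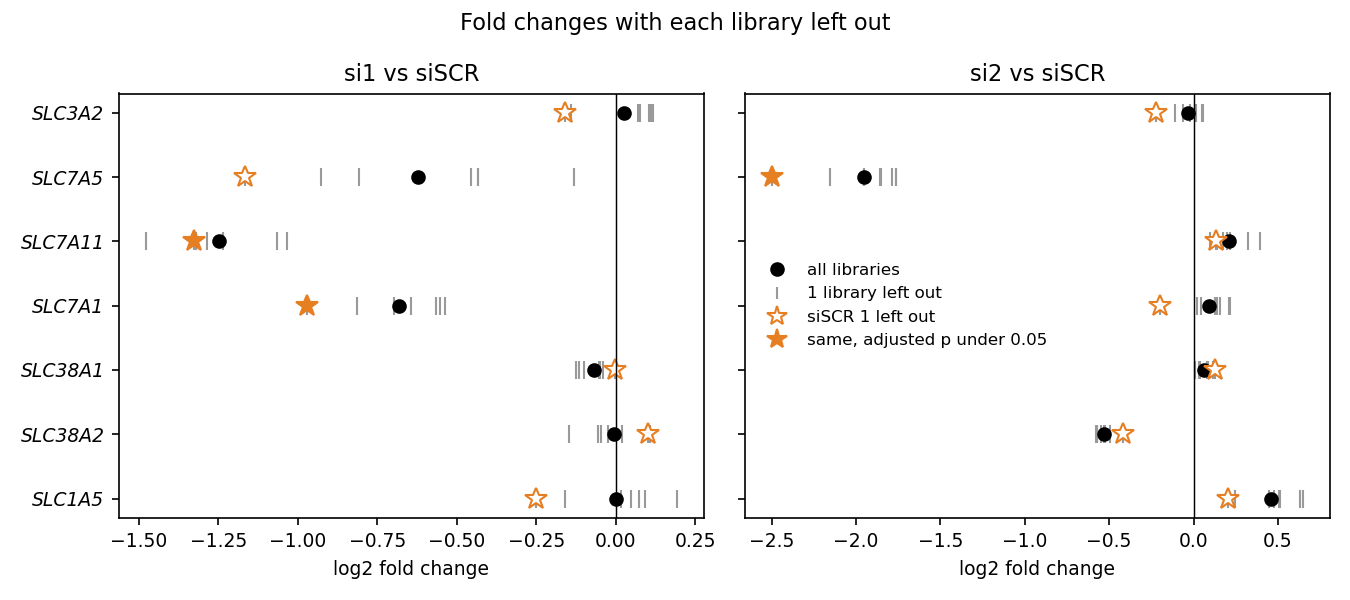
Limma log2 fold changes of the 7 tested transporters with each library left out in turn, for si1 (left) and si2 (right) against siSCR; the axes differ in range. Black circles are all libraries, grey ticks 1 library left out, and orange stars siSCR 1 left out, filled where the adjusted p is under 0.05. Leaving out siSCR 1 moves SLC7A5 with si2 to -2.50 and SLC7A1 with si1 to -0.97.

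The remaining genes of amino acid transport were counted in lists around the 10. Of 33 other plasma membrane transporters, 8 had enough reads to be tested, and limma called 0 in each of the 3 comparisons (3, 2 and 1 at an unadjusted p under 0.05; limma-voom called 1, 0 and 1). Their median log2 fold changes were 0.30 with si1, 0.50 with si2 and 0.30 for si2 against si1. The most abundant were SLC3A1, the heavy chain of the renal cystine carrier, and SLC6A6, the taurine carrier. SLC3A1 ranged from 455 to 609 normalized counts with si1, against 208 to 307 in siSCR and 281 to 403 with si2. Its log2 fold change with si1 was 1.01 (SE 0.21, limma adjusted p = 0.0595), with no overlap between the groups. Limma called it without siSCR 1 (0.0224), with a minimum of 50 (0.0263), with a pseudocount of 5 (0.0431) and with limma-trend (0.0158). SLC3A1 was also called with all 11 libraries in one fit (0.0145) and with limma-voom (0.0165). It was not called without any other single library (limma adjusted p 0.107 to 0.174) or with no filter on low values (0.136). SLC6A6 averaged 68.4 ± 17.5, 64.8 ± 4.07 and 90.1 ± 23.2 normalized counts and was not called by limma.

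Of 11 lysosomal and vesicular transporters, 8 were tested, and limma called 0 with either siRNA against siSCR (2 and 2 at an unadjusted p under 0.05; limma-voom called 0 and 0). Between the siRNAs 1 was higher with si2, SLC38A7, a lysosomal glutamine exporter, at 156 ± 21.6 against 73.5 ± 25.4 normalized counts (log2 difference 1.14, SE 0.28, limma adjusted p = 0.0477). That SLC38A7 call was lost when any 1 of the 7 libraries was left out (0.05 to 0.121). Between the siRNAs limma called 6.74% of all genes tested. In that comparison 3 of the 8 were at an unadjusted limma p under 0.05, and limma-voom called 1. The list's medians were -0.06, 0.18 and 0.24.

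Downstream of cystine uptake, 10 of 13 listed genes of cystine and glutathione use were tested. Limma called 1, 0 and 1 in the 3 comparisons, beside 1.72%, 3.12% and 6.74% of all genes tested. At an unadjusted p under 0.05 limma gave 5, 1 and 4, and limma-voom called 1 in each comparison. With si1 1 was lower and none higher: GCLM, the regulatory partner of glutamate-cysteine ligase, which makes the precursor of glutathione. GCLM was at 344, 391, 366 and 497 normalized counts in siSCR, at 103, 38.9 and 113 in si1, and at 438, 358, 315 and 394 in si2. As for SLC7A11, all si1 libraries lay below all others and siSCR overlapped si2. With si1 against siSCR the groups did not overlap for 3 of the 10 genes, beside 21.7% of all genes tested. Between the siRNAs this held for 3 of the 10, beside 25%. With si1, 6 of the 10 log2 fold changes were positive and 4 negative. GCLM fell with si1 by 2.35 on the log2 scale (SE 0.37, limma adjusted p = 0.0341), and it was higher with si2 than with si1 by 2.27 (SE 0.36, limma adjusted p = 0.0156). The first GCLM call was lost when any library but siSCR 1 was left out (0.0629 to 0.126), and the second without si2 1, si2 2 or si2 4 (0.0502 to 0.0525). With si2 against siSCR limma called 0 of the 10 (1 at an unadjusted p under 0.05; limma-voom called 1). The list's medians were 0.12, -0.02 and -0.17.

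All 11 genes for transporter partners and trafficking were tested. By limma, 1 was lower with si1 and 1 was higher with si2. Between the siRNAs 1 was higher and 1 lower with si2. Over all genes tested limma called 1.72%, 3.12% and 6.74% in the 3 comparisons. At an unadjusted p under 0.05 limma gave 4, 3 and 4 of the 11, beside 23.9%, 19.6% and 25.4% of all genes. Limma-voom called 4, 2 and 4, beside 582 of 10517, 463 of 10249 and 1172 of 10448 genes. The genes called by limma were 2 ubiquitin ligases and a surface glycoprotein. NEDD4, a ligase of a family known to ubiquitinate membrane transporters, ranged from 25.5 to 48.6 normalized counts with si1, from 91.5 to 137 in siSCR and from 155 to 235 with si2. The 3 groups did not overlap, with si1 the lowest and si2 the highest. NEDD4 fell with si1 by 1.57 on the log2 scale (SE 0.26, limma adjusted p = 0.0363) and was higher with si2 than with si1 by 2.33 (SE 0.27, limma adjusted p = 0.00687). The si2 to si1 call of NEDD4 held without each library in turn (0.00551 to 0.0293), while the si1 call was lost without any library but siSCR 1 (0.0675 to 0.129). NEDD4L, its close relative, rose with si2 by 0.76 (SE 0.16, limma adjusted p = 0.0314), from 185 ± 17.0 to 316 ± 41.3, a call lost without any library but siSCR 1 (0.0728 to 0.106). CD44, a surface glycoprotein known as a partner of xCT, was lower with si2 than with si1 by a log2 difference of -0.83 (SE 0.17, limma adjusted p = 0.0295; lost without si1 1, si1 3, si2 1, si2 2 or si2 4, at 0.0544 to 0.0953). CD44 was at 2061 in siSCR 1 and at 852 to 1062 in siSCR 2 to 4. The list's medians were 0.26, 0.11 and -0.04.

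The amino acid shortage response had 24 listed genes, of which 21, 22 and 22 were tested. Limma called 0 in each comparison (11, 5 and 7 at an unadjusted p under 0.05; limma-voom called 1, 1 and 2), beside 23.9%, 19.6% and 25.4% of all genes at that unadjusted p, and the medians were -0.04, 0.09 and -0.28. GDF15, a stress-induced secreted factor and the most abundant member, was at 3481 normalized counts in siSCR 1 against 566 to 621 in siSCR 2 to 4. It was at 1549 to 3450 in si1 and 727 to 1273 in si2. Its log2 fold change with si1 was 1.36 (SE 0.66, limma adjusted p = 0.248), and without siSCR 1 it was 2.00 and GDF15 was called (0.0149); with si2 it was 0.21, and 0.84 and called without siSCR 1 (0.0325). ATF4, the factor itself, was between 992 and 1087 normalized counts in siSCR, and its ranges in si1 (670.2 to 1128) and si2 (824 to 1114) overlapped that.

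Among 10 regulators of transporter genes, of which 10, 9 and 10 were tested, limma called 0 in each comparison (1, 1 and 2 at an unadjusted p under 0.05; limma-voom called 0, 0 and 2). The medians were 0.07, -0.06 and -0.17. NFE2L2, which encodes NRF2, averaged 477 ± 11.6, 481 ± 86.4 and 435 ± 17.8 normalized counts in siSCR, si1 and si2. The activity of ATF4 and NRF2 is set largely at the protein level, which was not measured.

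Of 34 genes through which mTORC1 senses amino acids, 32 were tested. Limma called 2, 2 and 1 in the 3 comparisons, beside 1.72%, 3.12% and 6.74% of all genes tested. At an unadjusted p under 0.05 limma gave 7, 9 and 6, and limma-voom called 4, 2 and 3. With si1 2 were higher and none lower: FNIP2, a partner of folliculin, rose by 1.82 on the log2 scale (SE 0.35, limma adjusted p = 0.0491), from 50.1 ± 20.9 to 169 ± 30.8 normalized counts. BMT2 (SAMTOR), a sensor of S-adenosylmethionine, rose by 1.56 (SE 0.25, limma adjusted p = 0.0341), from 25.2 ± 5.76 to 76.4 ± 18.2. With si2 2 were higher and none lower: FNIP2 rose by 1.22 (SE 0.28, limma adjusted p = 0.0497), to 111 ± 16.4, and RRAGD, a Rag GTPase, by 1.18 (SE 0.22, limma adjusted p = 0.0222), from 30.6 ± 7.48 to 70.1 ± 14.1. Between the siRNAs 1 was lower with si2, SESN1, a sestrin, by a log2 difference of -1.87 (SE 0.36, limma adjusted p = 0.0243). SESN1 averaged 33.5 ± 19.6 normalized counts in siSCR, 141 ± 51.0 in si1 and 38.4 ± 13.0 in si2, so si2 was near the control level. Its log2 fold change with si1 against siSCR was 2.13 (SE 0.42), which missed the threshold (limma adjusted p = 0.0524). With any library but siSCR 1 left out, the si1 calls were lost (FNIP2 0.0865 to 0.148, BMT2 0.0704 to 0.124), as was that of FNIP2 with si2 (0.053 to 0.14). The call of RRAGD was lost without any library but siSCR 1 and si2 4 (0.0568 to 0.073), and that of SESN1 without si2 1, si2 2 or si2 4 (0.0506 to 0.0628). The medians were 0.20, 0.21 and -0.17.

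**Figure D5:**
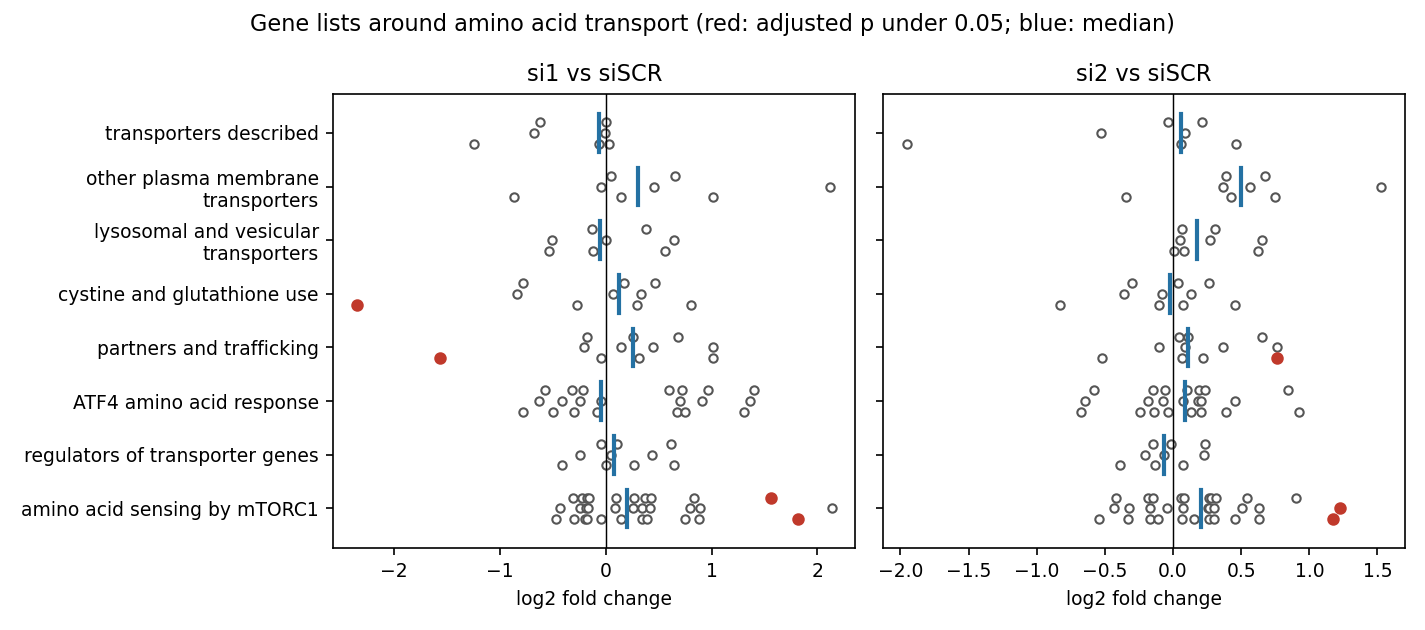
Log2 fold changes of every tested gene of the 10 transporters and of 7 lists around them, for si1 (left) and si2 (right) against siSCR; the axes differ in range. Circles are genes, red where the limma adjusted p is under 0.05, and blue bars are list medians. Red points are GCLM, NEDD4, FNIP2 and BMT2 on the left and NEDD4L, FNIP2 and RRAGD on the right.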

How the data were processed

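The submitters' processing notes name cutadapt for trimming, FastQC, STAR with GRCh38, and HTSeq for counting, with versions not given in the sources used here. For each siRNA the authors deposited a table with log2 values per library, found here to be log2(normalized count + 1), and the labels' protocols give the scaling as the relative log expression of DESeq2. Per the file headers, the same tables hold a mean normalized signal, the authors' log2 fold change, and a raw and an adjusted p-value. Undone, 100% of the values lay within 0.01 of a whole read, and the control columns of both tables were equal. Recomputed size factors were within 0.0454% of the deposited scale.

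Each comparison was fitted on its own libraries with limma 3.58.1 in R 4.3.3 (empirical Bayes, no trend, group as the only term). A gene was tested where at least as many libraries as the smaller group holds had 10 or more normalized counts. Tests were two-sided, with Benjamini-Hochberg adjustment over all tested genes and a threshold of 0.05. Fold changes are on the log2(normalized count + 1) scale, which understates those of low genes. A quasi-likelihood count test was planned for raw counts; as the unit was log2 it was not run, and limma-voom took its place. Exact permutation tests of single values doubled the smaller tail. The fits were tested on simulated data. The members and lists were chosen with earlier results of these data known. All 10 members were named, as were AKR1A1, the 5 genes most like SLC7A11, and from each list the called genes (at most 4 per comparison) or, where none was called, the 2 of highest level. Positions are from GENCODE 29 and promoter windows from RefSeq, both on GRCh38; some annotated overlaps are not reported here. Of the listed genes, SLC7A11-AS1 had no row under that name. As alternatives, values were rescaled to the upper quartile, the filter was dropped or set at 50, the pseudocount was set at 0.5 or 5, limma-trend, all 11 libraries in one fit or a replicate block was used, and each library was left out. Limma-voom, and leaving out siSCR 1 and si1 2 together, were added after seeing the data.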

Additional observations from a re-analysis of the deposited data

Results flagged for a closer look

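SLC7A5 in siSCR 1 was at 40.3 normalized counts, far below the other 3 control libraries at 181 to 189. SLC7A11 in siSCR 3 was at 61.5 normalized counts, far above the other 3 at 35.3 to 38.5. Each was farther from its nearest neighbour than Dixon's 95% limit for 4 values allows; 14 groups of 4 libraries were examined, and chance passes that limit in about 1 of 20. The effects of the siRNAs on SLC7A11 differed from each other: the effect of si2 minus that of si1 was 1.46 on the log2 scale, which equals the si2 to si1 comparison tested with limma.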

How the results depend on the processing

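Genes called with si1 against siSCR numbered 181, and 5 with no filter, 567 with a minimum of 50, 414 with a pseudocount of 5, 712 with limma-trend, 1141 with all 11 libraries in one fit, 582 with limma-voom, 1747 without siSCR 1 and si1 2 together, and 0 to 1399 with 1 library left out. With si2 against siSCR they numbered 320, and 108 with no filter, 482 with limma-trend and 88 to 1496 with 1 library left out. Between the siRNAs they numbered 704, and 230 with no filter, 1064 with limma-trend, 1172 with limma-voom and 120 to 803 with 1 library left out. Of the 10 transporters, 0 were called with si1, against 1 with all 11 libraries in one fit, 2 without siSCR 1 and si1 2 together and 0 to 2 with 1 library left out. With si2 0 were called, against 1 with a pseudocount of 5, limma-trend or limma-voom and 0 to 1 with 1 library left out. Between the siRNAs 1 was called, against 0 with no filter, 3 with limma-trend, 3 with limma-voom and 0 to 2 with 1 library left out. With a minimum of 50 the 1 transporter called between the siRNAs was SLC7A1, and SLC7A11 was too low to be tested. Where the filter or the number of libraries changed, so did the number of genes or libraries in the test; for the other settings the cause was not tested.

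Some values near 0 turned sign. With si1, leaving out siSCR 1 and si1 2 together gave -0.075 for SLC3A2, 0.22 for SLC38A2, -0.16 for SLC1A5 and 0.12 for NFE2L2. Upper-quartile rescaling gave 0.045 for SLC38A2, 0.007 for SLC6A6 and 0.048 for NFE2L2 with si1, and limma-voom 0.007 for NFE2L2. Between the siRNAs AKR1A1 was at -0.018 with upper-quartile rescaling and -0.10 with limma-voom. With 1 library left out, the si1 range was -0.16 to 0.12 for SLC3A2, -0.15 to 0.11 for SLC38A2, -0.25 to 0.19 for SLC1A5, -0.18 to 0.075 for SLC6A6 and -0.14 to 0.12 for NFE2L2. The si2 range was -0.22 to 0.056 for SLC3A2, -0.20 to 0.22 for SLC7A1, -0.16 to 0.026 for GCLM and -0.034 to 0.84 for GDF15. Between the siRNAs it was -0.15 to 0.10 for SLC3A2, -0.43 to 0.45 for AKR1A1, -0.082 to 0.29 for ATF4, -0.26 to 0.00 for NFE2L2 and -0.041 to 0.52 for RRAGD. Of all 372, 370 and 349 values of named genes under an alternative, 285, 327 and 284 kept their sign and their side of the threshold.

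With the replicate block, 0, 175 and 6 genes were called in the 3 comparisons, and 0, 1 (SLC7A5, limma adjusted p 0.0479) and 0 transporters. The si2 to si1 call of SLC7A11 was lost (log2 difference 1.35, limma adjusted p 0.132), and NFE2L2 with si1 was at 0.003. Libraries of the same number correlated in their deviations from the group means at 0.402, 0.093 and 0.147 (si1 and siSCR), 0.102, -0.032, 0.176 and 0.088 (si2 and siSCR), and 0.110, -0.007 and 0.040 (si2 and si1), and 6 of these 10 correlated best with their own number. How many would match best by chance was not computed, so that count is not weighed. The labels tie the numbers to no shared culture or day, so the numbers were not used as pairs. Not every correlation passed 0.1, and whether the numbers mark a shared batch was not settled.

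Depth limited SLC7A11 with si1 (42 reads in 3 libraries), SLC1A4, SLC43A1 and SLC1A3. With 3 or 4 libraries a group, no permutation test of si1 goes under 0.0571. Each call of a named gene was lost with some library left out, except those of AKR1A1 with si2 and of NEDD4 between the siRNAs.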
